A study of Homo sapiens with 8 samples.

Results

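The 47 genes described here code for proteins that make ribosomes in the nucleolus: subunits of RNA polymerase I, proteins of the small nucleolar ribonucleoproteins (snoRNPs), nucleolar chaperones, and assembly factors of the small and large ribosomal subunits. They were chosen by name from a list of such genes and not by a cut on their values, but with earlier results of these data known. The choice was thus not independent of the data. All 47 of the 47 were found among the 15041 genes of the series, in each of its 8 tables. The cells came from MDA-MB-231, an established line from a human breast tumour that lacks hormone receptors, and were picked 1 by 1 with a mouth pipette before sequencing. Untreated wild type (WT) cells, WT cells given 5 Gy of ionizing radiation and cultured for another 4 h, untreated cells labelled ATM knockdown, and cells of that label irradiated in the same way made up the 4 groups, with 2 libraries each. ATM codes for a protein kinase that is activated at broken DNA. All cells grew in the same serum-containing medium; how the knockdown was made, and whether it is 1 clone, is not given in the sources used here. Whether libraries of 1 group stem from different cultures is not given in the sources used here, and the replicate numbers below only name the libraries, in the order in which they are listed, so p-values measure the spread between libraries and that spread can be technical alone. WT and knockdown libraries carry different title suffixes, and any difference in their handling cannot be told apart from genotype.

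Ribosome production begins when RNA polymerase I transcribes the large precursor of ribosomal RNA (rRNA) in the nucleolus. Box C/D snoRNPs guide the 2′-O-methylation of this precursor and box H/ACA snoRNPs its pseudouridylation, while the small subunit processome and a series of large subunit factors fold, cut and assemble it with ribosomal proteins. Transcription of rRNA is among the most energy-demanding activities of a growing cell and is a known target of the ATM pathway, which can silence RNA polymerase I at broken DNA. The members report on the messenger RNA of the machinery, not on rRNA itself, which these libraries were not made to measure.

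The start regions of the members are shown because genes of this class are known for short shared promoter motifs. RefSeq promoter entries (GRCh38.p14) matched 41 members, leaving out BOP1, NOL10, NOLC1, NOP58, RRP12 and RRS1, and the 250 bases before each start were searched on both strands, with a gene counted once. The letters CCGGAAG, the core that ETS factors bind, were in 16 of the 41 members (39.0%), against 10.2% of all genes with an entry and 18.7% of those tested for expression. CACGTG, the E-box that MYC and related factors bind, was in 6 of 41 (14.6%), against 7.73% and 11.2%. CCAAT, the box that factor NF-Y binds, was in 17 of 41 (41.5%), against 37.0% and 41.5%. Of the members with an entry, 8 of the 25 that passed the expression test in at least 1 comparison held CCGGAAG, and so did 8 of the 16 that passed in none. The stretches below hold a motif of a member that passed and overlap no exon annotated in GENCODE release 29. They are written 5′ to 3′ on the gene's strand, and the capitals mark CACGTG in UTP20 and, in the others, the motif CCGGAAG as it reads on the opposite strand.
C1QBP, chr17:5439156-5439213, minus strand, motif beginning 18 bases before the start: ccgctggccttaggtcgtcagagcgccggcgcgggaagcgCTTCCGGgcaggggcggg
LAS1L, chrX:65534981-65535037, minus strand, motif beginning 240 bases before the start: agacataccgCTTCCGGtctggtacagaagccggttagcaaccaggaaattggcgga
LAS1L, chrX:65534883-65534969, minus strand, motif beginning 142 bases before the start: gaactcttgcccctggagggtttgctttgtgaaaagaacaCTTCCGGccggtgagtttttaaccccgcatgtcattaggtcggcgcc
UTP20, chr12:101280055-101280104, plus strand, motif beginning 10 bases before the start: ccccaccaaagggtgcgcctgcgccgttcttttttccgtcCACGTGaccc
Starts are those of RefSeq. The C1QBP stretch lies inside that gene's longer span in GENCODE, between annotated exons, so it is upstream of the RefSeq start only; the other 3 lie outside their gene's span. A match describes the letters only, and no binding was measured in these libraries.

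Kept cells of a library summed to 9321268 to 24256471 counts, and 363 of 378 cells were kept; the 15 left out all came from knockdown libraries. ATM itself stood at 57.9 and 31.1 CPM in untreated WT, 28.0 and 33.2 in irradiated WT, 13.8 and 33.0 in untreated knockdown, and 13.0 and 14.0 in irradiated knockdown. The library labelled untreated knockdown replicate 2 thus held as much ATM transcript as 2 WT libraries, and the ATM differences of -0.98 (untreated) and -1.25 (irradiated) on the log2 scale did not pass (edgeR adjusted p = 0.157 and 0.109). CPM are counts per 1000000 counts of the library. The line's markers VIM, CD44, AXL, CAV1 and KRT18 were present in all 8 libraries, and the leukocyte and embryonic kidney markers found summed to at most 1.80 CPM. Of 7 luminal breast markers, KRT19 stood at 289 to 491 CPM, GATA3 at 35.7 to 54.8, EPCAM at 15.5 to 61.3, and PGR and CDH1 at or below 2.02. ESR1 and FOXA1 were searched for and were not among the 15041 genes of the series. The 5 found summed to 360.3 to 588 CPM. Summed levels of 30 genes of the G1/S transition ran from 1741 to 1791 CPM in untreated WT, 2827 to 4346 in irradiated WT, 2344 to 2392 in untreated knockdown and 2768 to 2860 in irradiated knockdown. Those of 30 G2/M genes ran from 3898 to 8358, 4212 to 7461, 5082 to 5987 and 2805 to 3364 CPM in the same order.

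Most members were lowest in untreated WT and highest in irradiated knockdown, but they did not all share 1 order of the 4 groups. Irradiated WT had the lowest mean for 5 members, and untreated knockdown the highest for 5. Untreated WT had the lowest mean for 41 of the 47 members, against 30.3% of all genes tested, and irradiated knockdown the highest for 39, against 26.5%. Both untreated WT libraries lay below all 6 others for 31 members (10.3% of all genes), and both irradiated knockdown libraries above all 6 others for 19 (8.04%). Only LYAR, which codes for a nucleolar growth regulator, had its highest mean in untreated WT. Together the members held 0.331% and 0.327% of all counts in untreated WT, 0.523% and 0.472% in irradiated WT, 0.633% and 0.610% in untreated knockdown, and 0.796% and 0.683% in irradiated knockdown. The groups did not overlap on this sum. NPM1, NOP10 and NCL made up 16.3%, 10.6% and 8.85% of it.

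**Figure D1:**
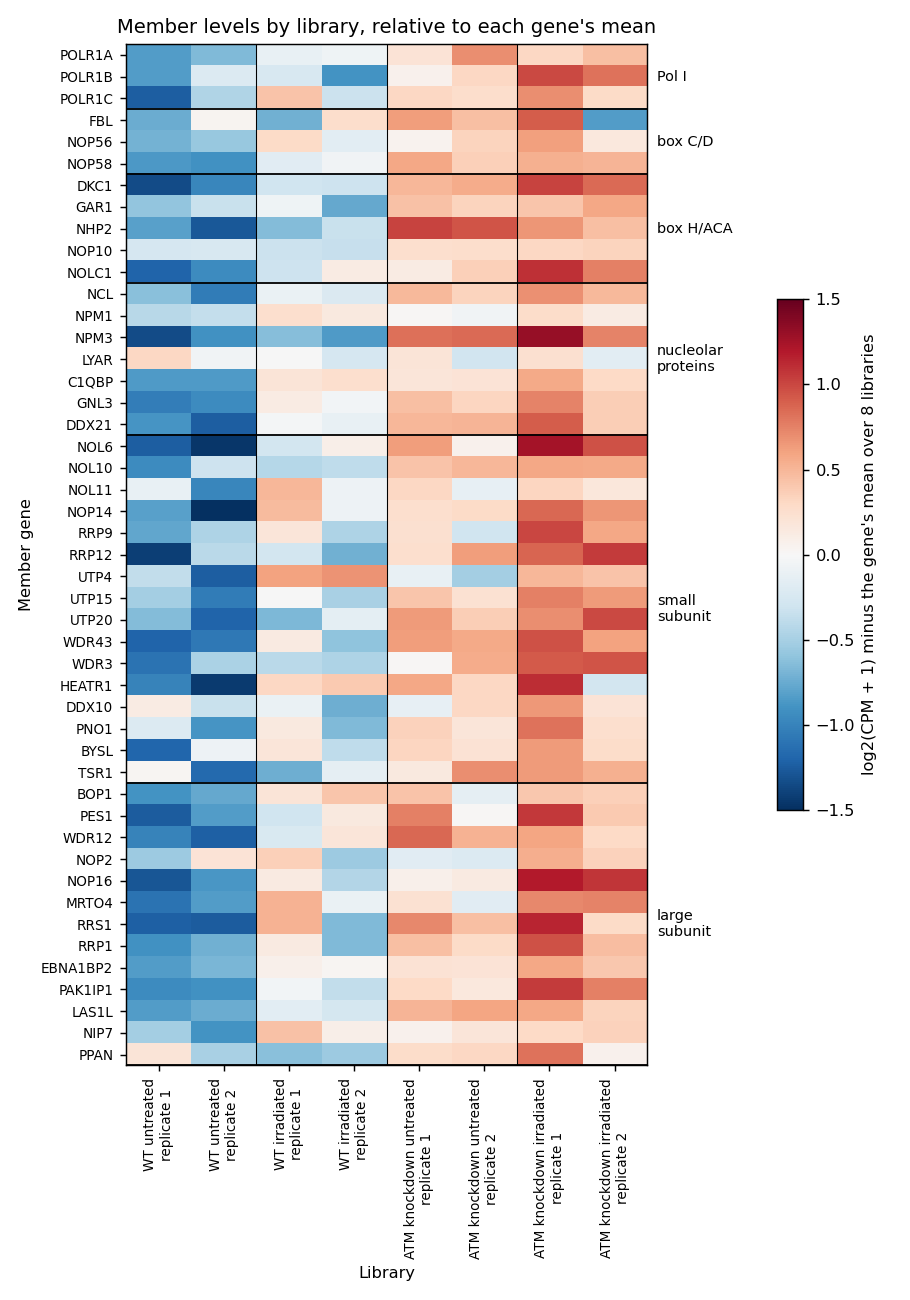
Level of each of the 47 members (rows, by role) in each of the 8 libraries (columns), as log2(CPM + 1) minus the gene's mean over the libraries, from blue (lower) to red (higher). The 2 untreated WT columns are blue for most members, and the 2 irradiated knockdown columns are red for most.

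Irradiation of WT cells went with higher levels of members in all 6 roles, and at least 1 member passed in each role but RNA polymerase I. Of the 47 members 42 were higher after 5 Gy (48.8% of all genes were) and 16 passed the test (adjusted p under 0.05 in edgeR's quasi-likelihood test over 12456 genes), all upward, while 1.65% of all genes passed in either direction and 0.907% upward. The passing members were NOP58, DKC1, NOLC1, NCL, NPM1, C1QBP, GNL3, DDX21, NOL6, NOP14, WDR43, BOP1, WDR12, NOP16, MRTO4 and EBNA1BP2. The median log2 change was 0.70 over the members and -0.01 over all genes. Both irradiated libraries lay above both untreated ones for 33 members and below them for 2; over all genes these shares were 20.9% and 23.0%. The count fell to 6 without untreated WT replicate 1, to 6 without irradiated WT replicate 1 and to 9 without irradiated WT replicate 2; it was 6 when cells above 2 times the median total were left out and 1 when the WT groups were fitted alone. Of the 30 G1/S genes 14 passed upward in the same comparison, and their part in the members' result was not tested.

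In knockdown cells the same dose gave a smaller median difference. Again 42 of the 47 members were higher (50.8% of all genes), with a median log2 change of 0.22 against 0.01 over all genes, but 0 passed (0.225% of all genes did); 7 had an unadjusted p under 0.05, as did 8.86% of all genes. DESeq2's Wald test and limma on the mean CPM per cell each called NOP16 and PAK1IP1. Both irradiated libraries lay above both untreated ones for 23 members, against 20.4% of all genes. The difference between the genotypes' responses was tested as an interaction and passed for 0 members (0.185% of all genes), with 13 under an unadjusted p of 0.05 (9.5% of all genes) and a median of -0.50; DESeq2 called C1QBP. A smaller response in the knockdown was thus not shown for any single member by the edgeR test. G2/M genes were lower in the irradiated knockdown libraries, 29 of 30, with 1 past the threshold.

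Averaged over both genotypes, 44 of the 47 members were higher after irradiation and 12 passed, all upward, against 1.49% of all genes passing in either direction and 0.642% upward. Those that passed were C1QBP, NOP16, NOLC1, MRTO4, PAK1IP1, EBNA1BP2, DKC1, NPM1, NOL6, GNL3, DDX21 and NOP14, with a median over all members of 0.48. Without irradiated knockdown replicate 1 the count was 4.

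The largest median difference of the members was between genotypes before irradiation. In untreated cells 45 of the 47 members were higher in the libraries labelled knockdown (49.3% of all genes) and 27 passed, all upward, against 9.94% of all genes in either direction and 4.83% upward. The median difference was 1.06 on the log2 scale against -0.01 over all genes, and both knockdown libraries lay above both WT ones for 42 members (27.5% of all genes). Without the library labelled untreated knockdown replicate 2, the one whose ATM level matched WT, 22 members passed; with the 2 untreated groups fitted alone 16 did. After irradiation 43 members were higher in the knockdown (49.7% of all genes) and 13 passed upward (5.1% of all genes in either direction, 2.18% upward), with a median of 0.68; both knockdown libraries lay above both WT ones for 35 members (29.6% of all genes). The count of 13 fell to 7 without irradiated WT replicate 1, 3 without irradiated WT replicate 2, 3 without irradiated knockdown replicate 1 and 8 without irradiated knockdown replicate 2. The untreated comparison shares its WT libraries with the comparison of irradiated and untreated WT, so the counts of 27 and 16 are not independent of each other. MYC, whose product drives transcription of many ribosome biogenesis genes, stood at 88.0 and 92.0 CPM in untreated WT, 65.2 and 59.9 in irradiated WT, 189 and 189 in untreated knockdown, and 168 and 109.6 in irradiated knockdown. It was higher in the knockdown by 1.01 untreated (edgeR adjusted p = 0.00651) and 1.08 irradiated (adjusted p = 0.00820), and its change with irradiation in WT was -0.50 (adjusted p = 0.287).

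**Figure D2:**
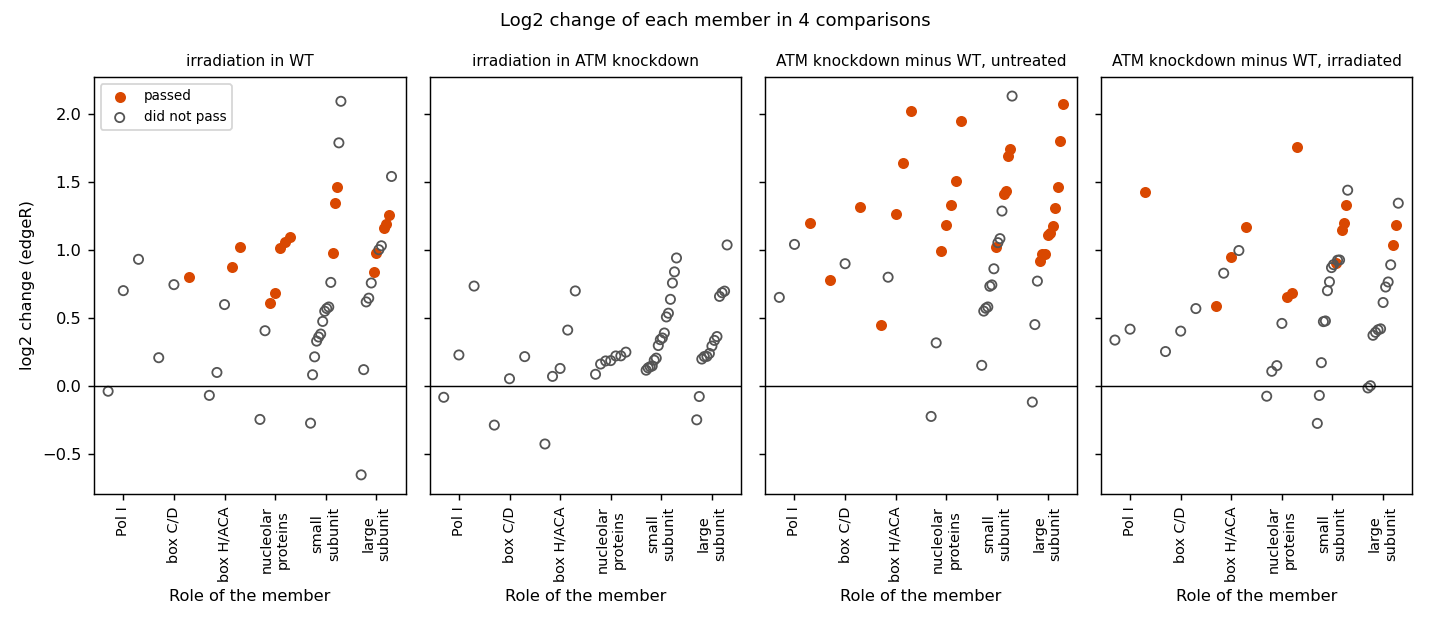
Log2 change of each member (1 point each) in 4 comparisons, from edgeR, by role; filled points passed the test and open points did not. Filled points number 16, 0, 27 and 13 from left to right, and all lie above 0.

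Of the 3 subunits of RNA polymerase I, which transcribes the rRNA genes, 0 passed with irradiation in WT (2 had an unadjusted p under 0.05) and 1 passed in each comparison of genotypes. POLR1A, the largest subunit, stood at 17.3 and 19.7 CPM in untreated WT, 29.2 and 30.1 in irradiated WT, 36.6 and 52.0 in untreated knockdown, and 39.5 and 43.7 in irradiated knockdown. Untreated WT was lowest and the knockdown groups overlapped; the untreated difference between genotypes passed at 1.20 (SE 0.306, adjusted p = 0.0209), and the change with irradiation in WT was 0.70 (adjusted p = 0.309). POLR1B, the second-largest subunit, stood at 13.2 and 21.0 CPM in untreated WT, 20.4 and 12.6 in irradiated WT, 25.5 and 30.5 in untreated knockdown, and 49.4 and 43.4 in irradiated knockdown. Here the WT groups overlapped and irradiated knockdown lay above all other libraries, passing against irradiated WT at 1.43 (SE 0.372, adjusted p = 0.0387). POLR1C, a subunit shared with RNA polymerase III, stood at 21.2 and 37.1 CPM in untreated WT, 69.2 and 40.8 in irradiated WT, 63.7 and 61.4 in untreated knockdown, and 83.4 and 62.8 in irradiated knockdown, and passed in no comparison (untreated knockdown minus WT 1.04 (SE 0.323, adjusted p = 0.0539)).

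Of the box C/D proteins, the scaffold subunits NOP56 and NOP58 passed in at least 1 comparison and the methyltransferase FBL in none. NOP58 stood at 84.8 and 81.9 CPM in untreated WT, 138 and 149 in irradiated WT, 232 and 199 in untreated knockdown, and 225 and 221 in irradiated knockdown. It rose with irradiation in WT by 0.80 (SE 0.171, adjusted p = 0.0313) and was 1.32 higher in untreated knockdown than in untreated WT (adjusted p = 0.000224), where the irradiated and untreated knockdown libraries overlapped. NOP56 stood at 67.0 and 74.5 CPM in untreated WT, 135 and 99.3 in irradiated WT, 114 and 139 in untreated knockdown, and 170.4 and 123 in irradiated knockdown, and passed only between the untreated genotypes (0.78 (SE 0.222, adjusted p = 0.0356)). FBL was low, at 3.30 to 13.4 CPM over the 8 libraries, and its changes in the 4 comparisons within 1 genotype or treatment (-0.29 to 0.90) came with SEs of 0.750 to 0.756. NOP56 holds 5 and NOP58 4 small nucleolar RNA genes within its span, and reads from these hosts were counted without a stated strand rule.

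For all 5 box H/ACA members both knockdown libraries lay above both WT libraries, untreated and irradiated, against 27.5% and 29.6% of all genes. DKC1 (ENSG00000130826.17, chromosome X, 154762742 to 154777689, plus strand, GRCh38), the pseudouridine synthase, stood at 52.7 and 68.3 CPM in untreated WT, 110.2 and 109 in irradiated WT, 193 and 200.2 in untreated knockdown, and 275 and 245 in irradiated knockdown. The 4 groups did not overlap and increased in that order. DKC1 rose with irradiation in WT by 0.88 (SE 0.184, adjusted p = 0.0313), was higher in the knockdown by 1.64 (SE 0.186, adjusted p = 7.57e-05) untreated and by 1.17 (SE 0.184, adjusted p = 0.00189) irradiated, and its change with irradiation in the knockdown, 0.41 (SE 0.181, adjusted p = 0.521), did not pass. Both genotype differences passed under every alternative run. NOLC1, the chaperone that carries snoRNPs in the nucleolus, stood at 51.7 and 62.2 CPM in untreated WT, 97.2 and 131 in irradiated WT, 131 and 154 in untreated knockdown, and 258 and 204 in irradiated knockdown. Its groups were in the same order without overlap, and it passed in WT (1.02 (SE 0.206, adjusted p = 0.0277)), in the average (0.86 (SE 0.145, adjusted p = 0.00783)) and in both comparisons of genotypes (1.27 and 0.95). NHP2, a core subunit, stood at 16.7 and 12.0 CPM in untreated WT, 18.9 and 23.8 in irradiated WT, 62.0 and 59.1 in untreated knockdown, and 48.2 and 41.6 in irradiated knockdown. It was higher in untreated knockdown by 2.02 (SE 0.31, adjusted p = 0.000787). After irradiation both WT libraries lay above untreated and both knockdown libraries below, a pattern that 2.63% of all genes showed. Its mirror image was shown by 3.77%, NOP10 among them, and each of the 2 patterns held 1 of the 47 members. NOP10, the smallest core subunit, stood at 469 and 470.3 CPM in untreated WT, 444 and 439 in irradiated WT, 663 and 672 in untreated knockdown, and 691 and 703 in irradiated knockdown. Its changes with irradiation, -0.07 in WT and 0.07 in the knockdown, did not pass (adjusted p = 0.876 and 0.939), and it was higher in the knockdown by 0.45 (SE 0.125, adjusted p = 0.032) untreated and 0.59 (SE 0.125, adjusted p = 0.0125) irradiated. GAR1, the remaining core subunit, passed in no comparison (0.80 in untreated knockdown minus WT, adjusted p = 0.0936).

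**Figure D3:**
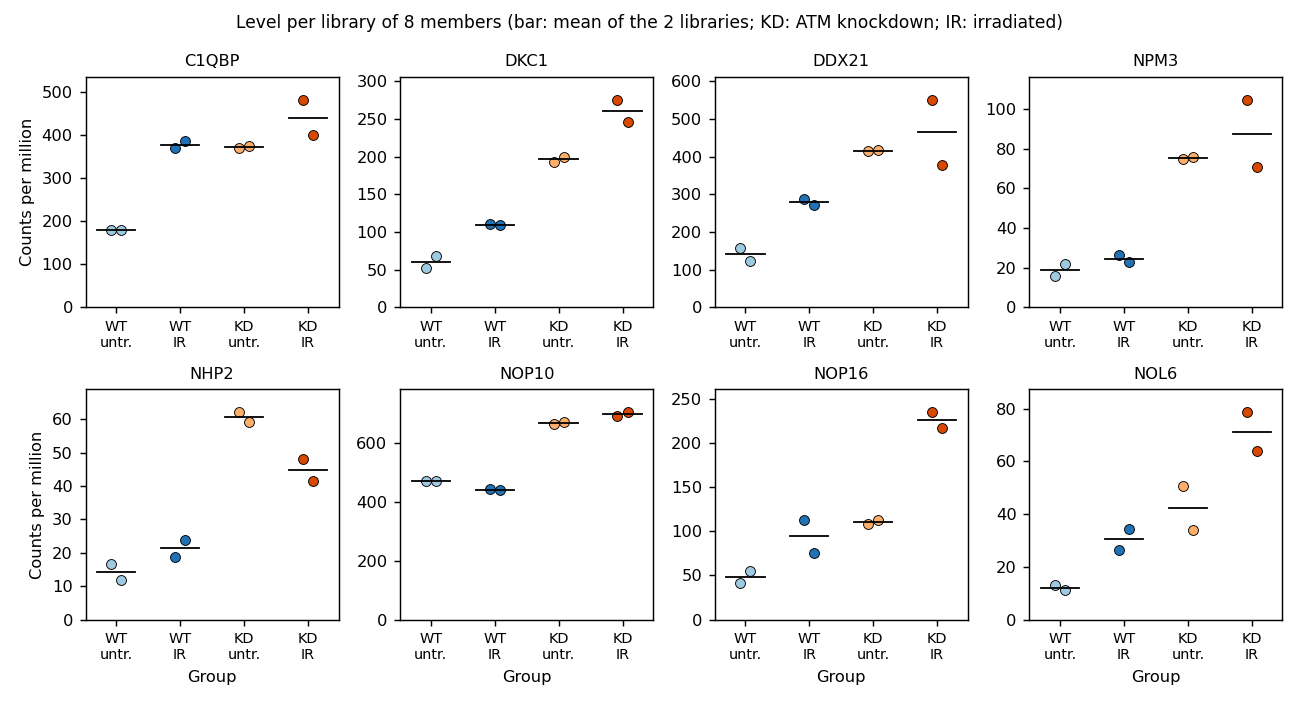
CPM of 8 members in each library (points; 2 per group) with the mean of the 2 libraries (bar), each panel on its own axis from 0. All but NOP10 are lowest in untreated WT. All knockdown libraries lie above all WT libraries for DKC1, DDX21, NPM3, NHP2 and NOP10, and NHP2 is lower in irradiated than in untreated knockdown.

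Among nucleolar chaperones and other nucleolar proteins, C1QBP had the smallest p with irradiation in WT, where 6 of the 7 were higher and 5 passed. C1QBP (ENSG00000108561.8, chromosome 17, 5432777 to 5448830, minus strand), an acidic multi-compartment protein found mainly in mitochondria and also in the nucleolus, stood at 179.7 and 179 CPM in untreated WT, 369 and 385 in irradiated WT, 368 and 375 in untreated knockdown, and 480.5 and 399.5 in irradiated knockdown. The irradiated WT and untreated knockdown libraries lay together, about level with each other and above untreated WT. It rose with irradiation in WT by 1.10 (SE 0.146, adjusted p = 0.00217), the only member call in that comparison that held under every alternative run. It was higher in untreated knockdown than in untreated WT by 1.00 (SE 0.145, adjusted p = 0.000571), and irradiated knockdown minus irradiated WT was 0.15 (adjusted p = 0.636). Its interaction was -0.85 (SE 0.204, adjusted p = 0.149). DDX21, an RNA helicase active in rRNA transcription and processing, stood at 158 and 124 CPM in untreated WT, 289 and 271 in irradiated WT, 415 and 418 in untreated knockdown, and 550.4 and 379 in irradiated knockdown. It passed in WT (1.01 (SE 0.18, adjusted p = 0.0148)) and between untreated genotypes (1.51, adjusted p = 0.000124). GNL3 (nucleostemin), a GTPase of proliferating cells, stood at 69.5 and 73.9 CPM in untreated WT, 156 and 139 in irradiated WT, 197 and 179.9 in untreated knockdown, and 242 and 186 in irradiated knockdown, with 1.06 in WT (adjusted p = 0.0141) and 1.34 between untreated genotypes (adjusted p = 0.000407). GNL3 holds 6 small nucleolar RNA genes and overlaps PBRM1 and GLT8D1.

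The remaining members of this role differed in which comparisons they passed. NPM1 (nucleophosmin) stood at 662 and 687 CPM in untreated WT, 1054 and 982 in irradiated WT, 897 and 851 in untreated knockdown, and 1067 and 965 in irradiated knockdown. It rose with irradiation in WT by 0.62 (SE 0.121, adjusted p = 0.0234), the irradiated groups overlapped, and the genotype differences of 0.32 and -0.07 did not pass (adjusted p = 0.113 and 0.811). NPM1 has 45 named pseudogenes, and how reads matching both were counted is not stated. NPM3, of the same family of histone chaperones, stood at 15.8 and 21.7 CPM in untreated WT, 26.4 and 22.7 in irradiated WT, 74.6 and 76.0 in untreated knockdown, and 105 and 70.6 in irradiated knockdown. It was higher in the knockdown by 1.95 (SE 0.285, adjusted p = 0.000579) untreated and 1.76 (SE 0.285, adjusted p = 0.00224) irradiated, both held under every alternative run. Both irradiated WT libraries also lay above both untreated ones, a difference of 0.41 that did not pass (adjusted p = 0.566). NCL (nucleolin), which binds nascent rRNA, stood at 292 and 217 CPM in untreated WT, 419 and 386 in irradiated WT, 632 and 568 in untreated knockdown, and 726 and 633 in irradiated knockdown. The 4 groups did not overlap, and NCL passed in WT (0.69 (SE 0.157, adjusted p = 0.042)) and between genotypes untreated (1.18, adjusted p = 0.000277) and irradiated (0.68, adjusted p = 0.02). LYAR ranged from 142 to 216 CPM and passed in no comparison, with changes of -0.25 to 0.11 in the comparisons within a genotype and between genotypes.

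Of the 16 small subunit factors 15 were higher with irradiation in WT, where NOL6, NOP14 and WDR43 passed. All 16 were higher in untreated knockdown than in untreated WT, and these 3, UTP20 and NOL10 passed. NOL6, an early processome protein, stood at 13.2 and 11.1 CPM in untreated WT, 26.5 and 34.4 in irradiated WT, 50.5 and 33.9 in untreated knockdown, and 78.5 and 63.9 in irradiated knockdown. It rose by 1.35 (SE 0.311, adjusted p = 0.0424) in WT and by 1.05 averaged over genotypes (adjusted p = 0.0239), and was 1.74 and 1.15 higher in the knockdown (adjusted p = 0.0025 untreated and 0.0423 irradiated). NOP14 stood at 21.2 and 11.5 CPM in untreated WT, 53.0 and 36.0 in irradiated WT, 45.4 and 46.6 in untreated knockdown, and 69.7 and 60.6 in irradiated knockdown. It rose by 1.47 (SE 0.326, adjusted p = 0.0375) in WT, and the untreated difference between genotypes was 1.44 (adjusted p = 0.0114). WDR43, of the module that binds the first part of the precursor, stood at 58.3 and 63.9 CPM in untreated WT, 149 and 88.5 in irradiated WT, 210.4 and 201 in untreated knockdown, and 263 and 206 in irradiated knockdown, with 0.98 in WT (adjusted p = 0.0448), 1.70 between untreated genotypes (adjusted p = 0.000349) and 0.91 between irradiated ones (adjusted p = 0.0314).

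The remaining passing factors of the small subunit passed between genotypes. UTP20 stood at 18.7 and 12.4 CPM in untreated WT, 18.3 and 27.0 in irradiated WT, 47.0 and 39.0 in untreated knockdown, and 49.1 and 60.3 in irradiated knockdown. Its WT groups overlapped and all 4 knockdown libraries lay above them, by 1.41 untreated (adjusted p = 0.0138) and 1.20 irradiated (adjusted p = 0.0489). NOL10 stood at 26.3 and 41.2 CPM in untreated WT, 37.9 and 39.3 in irradiated WT, 69.5 and 73.3 in untreated knockdown, and 77.2 and 76.9 in irradiated knockdown, with an untreated difference of 1.03 (SE 0.265, adjusted p = 0.023). WDR3 stood at 12.8 and 20.4 CPM in untreated WT, 21.5 and 20.6 in irradiated WT, 29.1 and 42.9 in untreated knockdown, and 55.4 and 55.9 in irradiated knockdown, with irradiated knockdown highest and an irradiated difference of 1.33 (SE 0.337, adjusted p = 0.0327). The 10 others passed nowhere. Their changes with irradiation in WT were 0.76 for NOL11, 0.55 for RRP9, 0.38 for RRP12, 1.79 for UTP4, 0.58 for UTP15, 2.10 for HEATR1, -0.27 for DDX10, 0.33 for PNO1, 0.48 for BYSL and 0.08 for TSR1. UTP4 and HEATR1 were at 1.10 to 11.5 CPM and had SEs of 0.898 and 0.826, so their large values are imprecise.

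Of the 13 large subunit factors 12 were higher with irradiation in WT and 5 passed; 12 were higher in untreated knockdown and 10 passed. NOP16 (ENSG00000048162.20, chromosome 5, 176383938 to 176388975, minus strand) stood at 41.6 and 55.5 CPM in untreated WT, 113 and 75.7 in irradiated WT, 108 and 113 in untreated knockdown, and 235 and 217 in irradiated knockdown. Both irradiated knockdown libraries were about as far above untreated knockdown as irradiated WT was above untreated WT: NOP16 changed by 0.98 (SE 0.227, adjusted p = 0.043) in WT and by 1.04 (SE 0.225, adjusted p = 0.0883) in the knockdown, the largest of the 47 knockdown values, and its average of 1.01 (SE 0.16, adjusted p = 0.00476) passed under every alternative run. It was also higher in the knockdown by 1.13 untreated (adjusted p = 0.00539) and 1.19 irradiated (adjusted p = 0.00671). MRTO4, related to the ribosomal stalk protein, stood at 33.1 and 40.5 CPM in untreated WT, 105 and 68.2 in irradiated WT, 85.4 and 64.7 in untreated knockdown, and 121 and 122 in irradiated knockdown. It rose by 1.26 (SE 0.258, adjusted p = 0.0289) in WT, by 0.98 in the average (adjusted p = 0.0123), and was 0.97 higher in untreated knockdown (adjusted p = 0.0254). EBNA1BP2 stood at 134 and 148 CPM in untreated WT, 253 and 245 in irradiated WT, 279 and 277 in untreated knockdown, and 360.3 and 318 in irradiated knockdown. Its groups did not overlap, and it passed in WT at 0.84 (SE 0.154, adjusted p = 0.0172) and between untreated genotypes at 0.92 (adjusted p = 0.00153). PAK1IP1, an assembly factor that limits the kinase PAK1, stood at 64.1 and 65.8 CPM in untreated WT, 120.5 and 96.1 in irradiated WT, 153 and 139 in untreated knockdown, and 258 and 210.2 in irradiated knockdown. Its groups did not overlap either; it passed in the average (0.72 (SE 0.135, adjusted p = 0.0133)) and in both comparisons of genotypes (1.11 and 1.04), while its 0.76 in WT missed the threshold (adjusted p = 0.0642).

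BOP1, PES1 and WDR12 form the PeBoW complex, which is needed to process the large subunit rRNA. WDR12 stood at 21.2 and 18.1 CPM in untreated WT, 37.0 and 49.6 in irradiated WT, 79.6 and 63.2 in untreated knockdown, and 66.2 and 53.6 in irradiated knockdown. It rose by 1.16 (SE 0.274, adjusted p = 0.0458) in WT and was 1.81 higher in untreated knockdown (adjusted p = 0.000808), and its irradiated knockdown libraries overlapped the untreated ones. BOP1 stood at 22.8 and 25.1 CPM in untreated WT, 49.8 and 58.0 in irradiated WT, 58.4 and 39.4 in untreated knockdown, and 57.6 and 55.7 in irradiated knockdown, with 1.19 in WT (adjusted p = 0.0448) and 0.97 between untreated genotypes (adjusted p = 0.037). PES1 stood at 15.0 and 20.2 CPM in untreated WT, 29.8 and 41.1 in irradiated WT, 63.2 and 37.5 in untreated knockdown, and 78.3 and 48.8 in irradiated knockdown, and passed only between untreated genotypes (1.46 (SE 0.347, adjusted p = 0.0146)); its change in WT was 1.03 (adjusted p = 0.165).

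The other passing large subunit factors passed between the untreated genotypes. LAS1L, of the complex that cuts the second internal spacer, stood at 31.5 and 33.7 CPM in untreated WT, 51.3 and 47.5 in irradiated WT, 81.8 and 86.7 in untreated knockdown, and 86.5 and 72.6 in irradiated knockdown, a difference of 1.31 (SE 0.233, adjusted p = 0.00227). RRP1 stood at 14.9 and 17.1 CPM in untreated WT, 31.6 and 17.8 in irradiated WT, 39.6 and 35.4 in untreated knockdown, and 56.4 and 39.9 in irradiated knockdown, a difference of 1.18 (SE 0.35, adjusted p = 0.0453). RRS1 stood at 3.13 and 3.05 CPM in untreated WT, 12.8 and 5.08 in irradiated WT, 14.9 and 12.2 in untreated knockdown, and 20.3 and 10.8 in irradiated knockdown, a difference of 2.07 (SE 0.609, adjusted p = 0.0423) from few counts. NIP7, NOP2 and PPAN passed nowhere, with changes in WT of 1.00 (adjusted p = 0.0655), 0.12 and -0.65. PPAN was at 1.82 to 6.66 CPM and shares its span with a readthrough gene, PPAN-P2RY11. In all, 21 of the 47 members overlap another coding gene and 9 have named pseudogenes.

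Of 136 other ribosome biogenesis genes listed, 130 were in the files and 128 were tested. With irradiation in WT 105 of the 128 were higher (48.8% of all genes were), with a median of 0.35. Only 2 passed, BRIX1 (1.09, edgeR adjusted p = 0.00547) and MPHOSPH6 (1.08, adjusted p = 0.0424). Over all genes 1.65% passed in either direction and 0.907% upward, so 2 of 128 is close to the share in either direction. In the knockdown 86 were higher (50.8% of all genes) and 0 passed (0.225% of all genes), with a median of 0.17. An unadjusted p under 0.05 was reached by 16, and by 8.86% of all genes. In the average BRIX1 and PUM3 passed (0.70 and 0.64), while 1.49% of all genes passed in either direction and 0.642% upward. These 2 of 128 are again close to the share in either direction. Between untreated genotypes 111 were higher (49.3% of all genes), with a median of 0.54, and 38 passed upward (4.83% of all genes). Another 2 passed downward, the RNA polymerase I subunits POLR2H and POLR2L (-0.70 and -0.71), which are shared by all nuclear RNA polymerases. In either direction 9.94% of all genes passed. Between irradiated genotypes 98 were higher (49.7% of all genes) and 9 passed upward (2.18% of all genes). PIH1D1, of the snoRNP assembly complex, passed downward (-0.83), and 5.1% of all genes passed in either direction.

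BRIX1, a large subunit assembly factor, stood at 91.2 and 93.2 CPM in untreated WT, 201 and 186 in irradiated WT, 205 and 195 in untreated knockdown, and 261 and 233 in irradiated knockdown. ESF1, a small subunit factor, stood at 117 and 119 CPM in untreated WT, 125 and 138 in irradiated WT, 298 and 304 in untreated knockdown, and 337 and 308 in irradiated knockdown. Its WT groups did not overlap but lay close together, and the knockdown was higher by 1.29 untreated (adjusted p = 0.000125) and 1.22 irradiated (adjusted p = 0.000445). RSL1D1 stood at 164 and 129 CPM in untreated WT, 195 and 177 in irradiated WT, 299 and 336 in untreated knockdown, and 341 and 319 in irradiated knockdown. GNL2, a relative of GNL3, stood at 52.6 and 46.0 CPM in untreated WT, 72.5 and 91.2 in irradiated WT, 142 and 121 in untreated knockdown, and 124 and 159 in irradiated knockdown. In both, every knockdown library was above every WT library, by 1.06 and 1.36 untreated. NIFK, which binds the proliferation antigen Ki-67, stood at 43.8 and 28.0 CPM in untreated WT, 65.5 and 46.3 in irradiated WT, 103 and 107 in untreated knockdown, and 165 and 139 in irradiated knockdown, a difference of 1.49 untreated and 1.38 irradiated. WDR75, of the same processome module as WDR43, stood at 18.0 and 14.3 CPM in untreated WT, 31.8 and 35.0 in irradiated WT, 47.4 and 57.5 in untreated knockdown, and 53.8 and 56.7 in irradiated knockdown, a difference of 1.64 untreated. In untreated knockdown the large subunit factors NOC2L (3.67), DDX31 (2.80), MYBBP1A (2.39), MDN1 (2.10), NLE1 (1.70), NOC3L (1.41), NOL9 (1.41), NOL8 (1.18), RRP15 (1.16), NOP53 (1.11), RBM28 (1.08), BCCIP (1.06), PUM3 (1.06), CEBPZ (1.02), GTPBP4 (0.98), SBDS (0.68) and DDX18 (0.68) also passed on the log2 scale. Among the small subunit factors RIOK1 (1.95), DHX37 (1.87), MPHOSPH10 (1.40), DIMT1 (1.37), IMP3 (1.11), UTP18 (0.96) and BUD23 (0.94) did so. NUFIP1 (1.46), EXOSC8 (1.39), TAF1D (1.19), EXOSC9 (0.93), TCOF1 (0.91), POLR1D (0.87), MPHOSPH6 (0.85) and POLR1F (0.81) completed the list. In irradiated cells PDCD11 (1.29), PUM3 (1.09), DCAF13 (1.07), GRWD1 (0.92), BUD23 (0.88), GTPBP4 (0.82) and RSL1D1 (0.76) passed besides ESF1 and NIFK.

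In single cells the groups had the same order on the member share as on the summed counts when every cell weighed the same. Each cell was thinned to 71000 counts, a depth that 327 of the 363 kept cells reached, and the share of its counts in the 47 members was taken. The depth was reached by 43 and 46 of 48 cells in untreated WT, 37 and 46 of 48 in irradiated WT, 33 of 41 and 39 of 44 in untreated knockdown, and 43 and 40 of 43 in irradiated knockdown. The median share was 0.311% and 0.305% in the untreated WT libraries, 0.462% and 0.461% in irradiated WT, 0.572% and 0.585% in untreated knockdown, and 0.831% and 0.718% in irradiated knockdown. Irradiated minus untreated group means were 0.154 percentage points in WT and 0.196 in knockdown (0.152 and 0.203 without thinning). The untreated means were unlike, 0.308% in WT and 0.578% in knockdown. Differences in points therefore do not rank the genotypes as log2 changes do, and these shares were not tested. The ranges of single cells overlapped between all groups, from 0.163% to 0.610% in untreated WT and 0.282% to 1.21% in irradiated knockdown. A median cell held counts of 24 and 25 of the 47 members in untreated WT, 33 and 30 in irradiated WT, 33 and 32 in untreated knockdown, and 40 and 38 in irradiated knockdown. Median genes of any kind per kept cell, before thinning, were 7328.5 and 7276, 6400.5 and 6912.5, 5874 and 6053, and 7537 and 6900 in the same order. In the knockdown more genes of any kind were thus detected after irradiation, and in WT fewer.

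**Figure D4:**
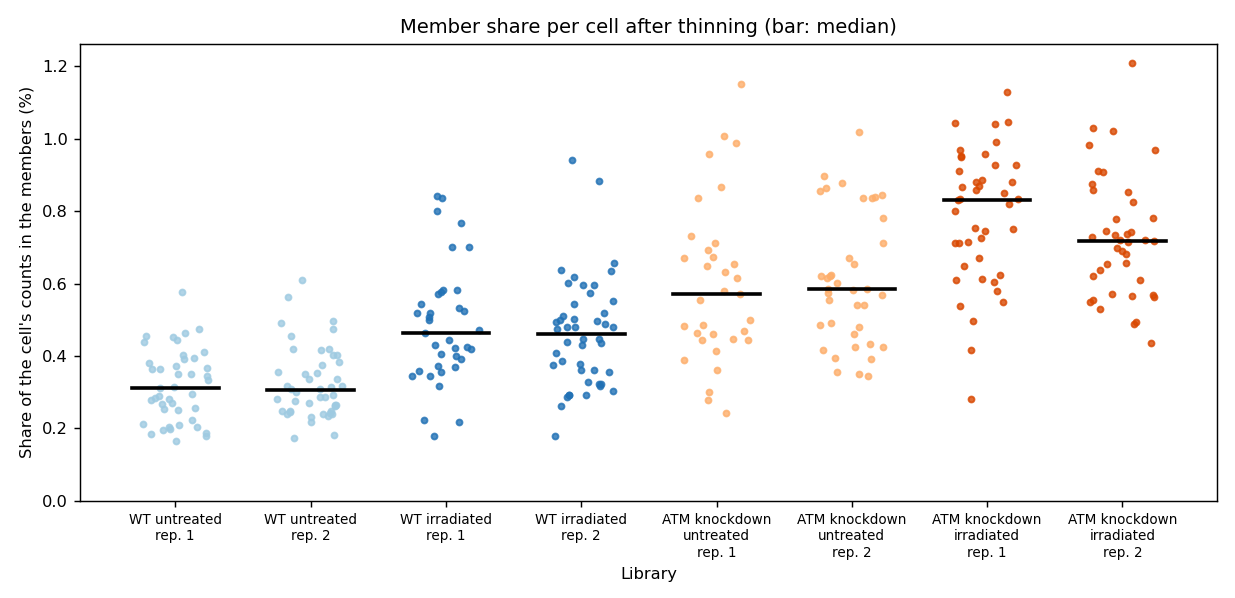
Share of a cell's counts in the 47 members, in percent, after thinning to 71000 counts, for each of 327 cells (points) by library, with the library's median (bar). Medians run from 0.305% and 0.311% in untreated WT to 0.718% and 0.831% in irradiated knockdown, and the clouds of single cells overlap.

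For DKC1, NPM3 and NOP16 the mean share of cells with a count rose over the groups in the order of the mean level. NHP2 departed from this between untreated and irradiated knockdown. Its mean level was 60.6 and 44.9 CPM there, and its mean share of cells with a count 78.1% and 84.4%. DKC1 was detected in 65.1 and 63.0 % in untreated WT, 83.8 and 91.3 in irradiated WT, 90.9 and 94.9 in untreated knockdown, and 100.0 and 100.0 in irradiated knockdown. NPM3 was detected in 18.6 and 30.4 % in untreated WT, 51.4 and 39.1 in irradiated WT, 60.6 and 66.7 in untreated knockdown, and 95.3 and 75.0 in irradiated knockdown, and NOP16 in 53.5 and 63.0 % in untreated WT, 81.1 and 82.6 in irradiated WT, 90.9 and 84.6 in untreated knockdown, and 100.0 and 97.5 in irradiated knockdown. With irradiation both libraries had more cells with a count for 30 of the 47 members in WT (22.8% of all genes tested) and for 34 in the knockdown (39.2%). Between genotypes both knockdown libraries had more such cells for 33 members untreated (16.6% of all genes) and 33 irradiated (26.3%). NPM1 was seen in every thinned cell of every library, and HEATR1 in 2.17% to 30.2% of cells. Cells were picked singly, so these shares carry no droplet background estimate.

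Within a library, cells with a high member share also tended to have high shares of other biogenesis and cell cycle genes. Spearman's rho over the cells of a library, given as a description without a test, ran from 0.61 to 0.82 (median 0.70) with the summed other ribosome biogenesis genes, from 0.14 to 0.64 (median 0.44) with G1/S genes and from 0.30 to 0.60 (median 0.35) with G2/M genes. It ran from -0.64 to 0.03 (median -0.47) with mitochondrial genes, from -0.04 to 0.39 with ribosomal protein genes and from -0.38 to 0.42 with the cell's total counts; cells of a library share its preparation, and these shares have the same denominator. Each member against the summed rest had a median rho of 0.01 to 0.49, above 0 in all 8 libraries for 26 members. At the top were NPM1 (0.49), DDX21 (0.46), NOLC1 (0.44), C1QBP (0.42) and NOP16 (0.42), and at the bottom POLR1B (0.01). No share over all genes is given for the 26, so it does not set the members apart from other genes. In the 164 cells at or below the median summed share of G1/S and G2/M genes, a split added after seeing the data, the median member share was 0.237% and 0.284% in untreated WT, 0.387% and 0.370% in irradiated WT, 0.465% and 0.479% in untreated knockdown, and 0.821% and 0.685% in irradiated knockdown. The groups kept their order there, with irradiation differences of 0.118 percentage points in WT and 0.281 in knockdown. In the 163 cells above that median the shares were 0.365% and 0.365%, 0.508% and 0.497%, 0.711% and 0.622%, and 0.832% and 0.736%. The order was the same, but the irradiation difference was 0.138 points in WT and 0.117 in knockdown. The genotype with the larger difference was thus not the same in the lower and the upper set of cells. This was not tested, and it rests on 2 libraries a group with 13 to 28 cells of a library in each set.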

How the data were processed

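The deposited tables hold whole-number counts per coding gene and cell, made by the authors with Trimmomatic 0.36, HISAT2 2.1.0, HTSeq 0.9.1 and the build hg38, per the submitters' processing notes; libraries were made by a modified Smart-seq2 with 3′ mRNA libraries, per the labels' protocols. Whether reads or molecules were counted, and with which strand rule, is not given in the sources used here. Genes absent from 1 table but listed in another were set to 0 there.

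Cells with at least 1000 genes and 5000 counts were kept, no doublet caller was run on the hand-picked cells, and counts were summed per library, so cells with many counts weigh more (the 10 largest held 39.3% to 54.9% of a library). No 2 of the 363 cell columns were identical. Genes were filtered with filterByExpr and tested with edgeR 4.0.16 (quasi-likelihood test, TMM, 4 groups in 1 fit, 4 residual degrees of freedom, common biological coefficient of variation 0.458, Benjamini-Hochberg over 12456 genes, threshold 0.05). All adjusted p-values printed for single genes are from that fit. Printed CPM are unscaled; log2 changes come from the TMM-scaled fit. A simulation of irradiation in WT used counts of 12456 genes, 200 of them changed. The test found 63% of the genes changed 2-fold and 98% of those changed 4-fold, and 14 calls were false. With no change put in, 0 calls arose. These rates were not split by expression level, so they give no recovery rate for members at low counts. Per-cell counts were thinned to 71000; 36 kept cells did not reach this depth.

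The members and all lists were chosen with earlier results of these data known. Named in full were members past the threshold in any comparison, the 2 members per role with the smallest p in the average, and up to 6 other biogenesis genes with the smallest p. Alternatives were DESeq2 1.42.0 (size factors, Wald test), no scaling, no or a stricter filter, limma 3.58.1 on the mean CPM per cell, the compared groups alone, other cell filters and each library left out. Scripts ran in R 4.3.3 and in Python 3.11.15 with pandas 2.3.3.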

Additional observations from a re-analysis of the deposited data

Results flagged for a closer look

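For NHP2 and NOP10 the libraries moved in opposite directions after irradiation in the 2 genotypes. NHP2 was higher in both irradiated WT libraries than in both untreated ones and lower in both irradiated knockdown libraries than in both untreated ones, with a difference between the responses of -1.03 on the log2 scale. NOP10 was lower in both irradiated WT libraries and higher in both irradiated knockdown libraries, with a difference of 0.14. The opposite movement itself was not tested; edgeR's interaction test of the difference did not pass for either gene (adjusted p = 0.456 and 0.863). Among all genes tested 3.77% moved apart in the direction of NOP10 and 2.63% in that of NHP2. Each direction held 1 of the 47 members, so the pattern was no more frequent among the members than among all genes.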

How the results depend on the processing

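No paired analysis was possible because the labels give the libraries no replicate numbers; those used here follow the order of listing and pair nothing. Of 16 members called with irradiation in WT, 1 remained with the compared groups alone and 6 without cells above 2 times the median total; leaving out 1 library gave 6 to 18. In the knockdown 0 were called, 1 without a filter, with a minimum mean log2 CPM of 5, with the groups alone or without large cells, 2 with DESeq2's Wald test and 2 with limma, and 0 to 1 with a library left out; the single call was NOP16 in each of these. For the interaction 2 were called without a filter (C1QBP and DDX21) and 1 with DESeq2's Wald test, and 0 to 1 with a library left out. The average gave 12, and 4 to 14 with a library left out. Between untreated genotypes 27 were called, 16 with the groups alone and 20 to 28 with a library left out; between irradiated ones 13, and 3 to 18. The groups alone give no value for the average or the interaction. Under every alternative run 1 of the 16, 4 of the 12, 16 of the 27 and 2 of the 13 calls were kept. No change that passed reversed its sign, nor did the averages of the 2 members per role with the smallest p. Other named changes were not part of this count. The irradiation difference in member share per cell was 0.154 points in WT, 0.142 with 30000 counts per cell, 0.1 without NPM1 and NCL, 0.118 in cells of low and 0.138 in cells of high cell cycle share, and 0.150 to 0.157 with a library left out. In the knockdown it was 0.196, 0.281 in the cells of low and 0.117 in those of high cell cycle share, and 0.140 to 0.253 with a library left out. With 2 libraries a group and a common coefficient of variation of 0.458, 2-fold changes were often missed in simulation. The simulation changed only genes with a mean log2 CPM of at least 5, so it gave no rate for members at lower counts. Members that did not pass are thus not shown to be unchanged.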
